A study of Mus musculus with 16 samples.

Results

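A set of 9 genes of the peroxisome proliferator-activated receptor (PPAR) system were followed through 16 RNA-seq libraries of primary mouse hepatocytes. They are 3 receptors (Ppara, Ppard and Pparg), 2 coactivators (Ppargc1a and Ppargc1b) and 4 classic target genes (Pdk4, Vnn1, Creb3l3 and Fabp1), picked by symbol from the 55450 genes of the table. All 9 were found, and all 9 passed the filter of the filter on low genes, which asks for 1 CPM or more on average (CPM is the read count scaled to the size of the library). Hepatocytes of wild-type mice, adult C57BL/6J males by the study's methods, were purified from digested livers by centrifugation and cultured overnight in DMEM with serum, insulin, transferrin and selenium, which every group received. They were left untreated, given 10 mM sodium itaconate, given a chemically defined mixture of fatty acids and cholesterol at a 10-fold dilution, or given both. Each of these 4 groups had 4 libraries, named by the replicate letters A to D. The stock of the mixture holds 2 µg/mL arachidonic acid, palmitic, stearic, oleic, myristic and linoleic acid at 10 µg/mL each, and 0.22 mg/mL cholesterol. The labels do not say whether a letter stands for an animal or a culture, so p-values measure the spread between these libraries only, which may be technical.

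PPARs are nuclear receptors that bind fatty acids and their derivatives, pair with the retinoid X receptor (RXR), and switch genes of fat handling at DNA elements made of a repeated hexamer. PPAR alpha, from Ppara, is the form best known in liver, where it drives fatty acid oxidation and ketone body synthesis during fasting. PPAR delta, from Ppard, is present in most tissues, and PPAR gamma, from Pparg, is the master regulator of fat cells and is also made in macrophages. PGC-1 alpha and PGC-1 beta, from Ppargc1a and Ppargc1b, are coactivators that carry no DNA binding of their own in this role and raise mitochondrial and, for PGC-1 alpha, gluconeogenic gene programs. Pdk4 encodes a kinase that turns off pyruvate dehydrogenase, Vnn1 a pantetheinase, Creb3l3 the liver transcription factor CREBH, and Fabp1 the fatty acid binding protein of the hepatocyte cytosol.

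The total of expected counts ran from 22346049 to 35512004 per library. The scarcest of the 9 genes, Ppargc1b, had 50 to 115 counts in a library, and Ppargc1a had 54 to 181, so that their changes carry wider errors than those of Fabp1, with 12938 to 26340. The hepatocyte label held: Alb averaged 30900 to 35800 CPM over the 4 groups, and the 10 hepatocyte markers together 38800 to 45100 CPM. Of the 11 macrophage markers, Cd68 averaged 165 to 262 CPM and the others at most 14.1 CPM. The 6 fat cell markers together averaged 2.62 to 2.83 CPM. Most of that was Fabp4 (1.94 to 2.18 CPM), which is also made in macrophages, while Adipoq and Retn averaged at most 0.0101 CPM. The SD over genes of each library's log2 difference from the other 3 of its group was 0.244 to 0.336, and no cutoff was set for it.

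The 300-base windows around the annotated starts, 250 bases before and 50 after, were searched on both strands for AGGTCANAGGTCA, the direct repeat of the hexamer AGGTCA with 1 base between that PPAR and RXR are known to bind. RefSeq windows of 7 of the 9 genes were searched, 10 windows in all (GRCm38.p6). Vnn1 and Ppargc1b were not searched, so whether they have a repeat is not known. A repeat with at most 2 mismatches was found for 2 genes, Fabp1 and Creb3l3, and 3.86% of all 32851 windows of this length hold one. The best match in the windows of Ppara, Ppard, Pparg, Ppargc1a and Pdk4 had 4 or 5 mismatches. The sequences below are the upstream stretches of the 3 targets that the results turn on, read in the direction of the gene and ended where the first annotated exon begins. Capitals in the Fabp1 sequence mark the repeat.
Fabp1, chr6:71199629-71199826, plus strand, 198 bases: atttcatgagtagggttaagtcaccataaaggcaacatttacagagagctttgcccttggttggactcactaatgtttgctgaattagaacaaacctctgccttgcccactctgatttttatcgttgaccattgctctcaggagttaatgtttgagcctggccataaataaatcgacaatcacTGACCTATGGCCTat
Creb3l3, chr10:81098875-81099122, minus strand, 248 bases: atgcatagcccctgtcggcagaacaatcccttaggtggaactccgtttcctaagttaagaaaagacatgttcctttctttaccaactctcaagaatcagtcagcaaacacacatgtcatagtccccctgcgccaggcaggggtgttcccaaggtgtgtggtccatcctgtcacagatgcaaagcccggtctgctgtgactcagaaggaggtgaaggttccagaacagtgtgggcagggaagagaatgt
Pdk4, chr6:5496310-5496528, minus strand, 219 bases: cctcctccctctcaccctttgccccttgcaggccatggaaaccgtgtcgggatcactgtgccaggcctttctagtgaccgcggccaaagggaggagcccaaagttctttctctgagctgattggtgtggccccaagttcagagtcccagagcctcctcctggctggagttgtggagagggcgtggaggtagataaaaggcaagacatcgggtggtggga

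The Fabp1 repeat lay on the strand opposite to the gene, at chr6:71199812-71199824, just ahead of the first exon, and had 1 mismatch, which 0.554% of all windows reach. The Creb3l3 repeat lay in the window of a second, internal start, in an intron at chr10:81092788-81092800, and had 2 mismatches. The pair is shown with the bases that match the motif in capitals and the spacer and mismatches in lower case.
Fabp1 repeat: AGGcCAtAGGTCA
Creb3l3 repeat: AGGggAgAGGTCA

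The hexamer alone was in the windows of Pparg, Creb3l3 and Fabp1, and in 16.3% of all windows. The lipid mixture lowered Fabp1 and raised Creb3l3, so the pair of genes with the repeat moved in opposite directions. A match is a description of the letters, not of binding.

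Lipid changed 6 of the 9 genes in each of its comparisons. Against untreated cells, Pparg, Pdk4, Vnn1 and Fabp1 fell and Ppard and Creb3l3 rose (edgeR's quasi-likelihood test with the replicate letter in the model, Benjamini-Hochberg adjusted over 11675 genes). Of all genes tested, 47.5% were called in that comparison, so a call is not particular to these genes. In cells that also had itaconate, Pparg, Ppargc1a, Pdk4, Vnn1 and Fabp1 fell and Creb3l3 rose, beside 47.0% of all genes called. The comparisons of lipid with untreated and of lipid + itaconate with itaconate share no library, although they share the model and the letters.

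**Figure D1:**
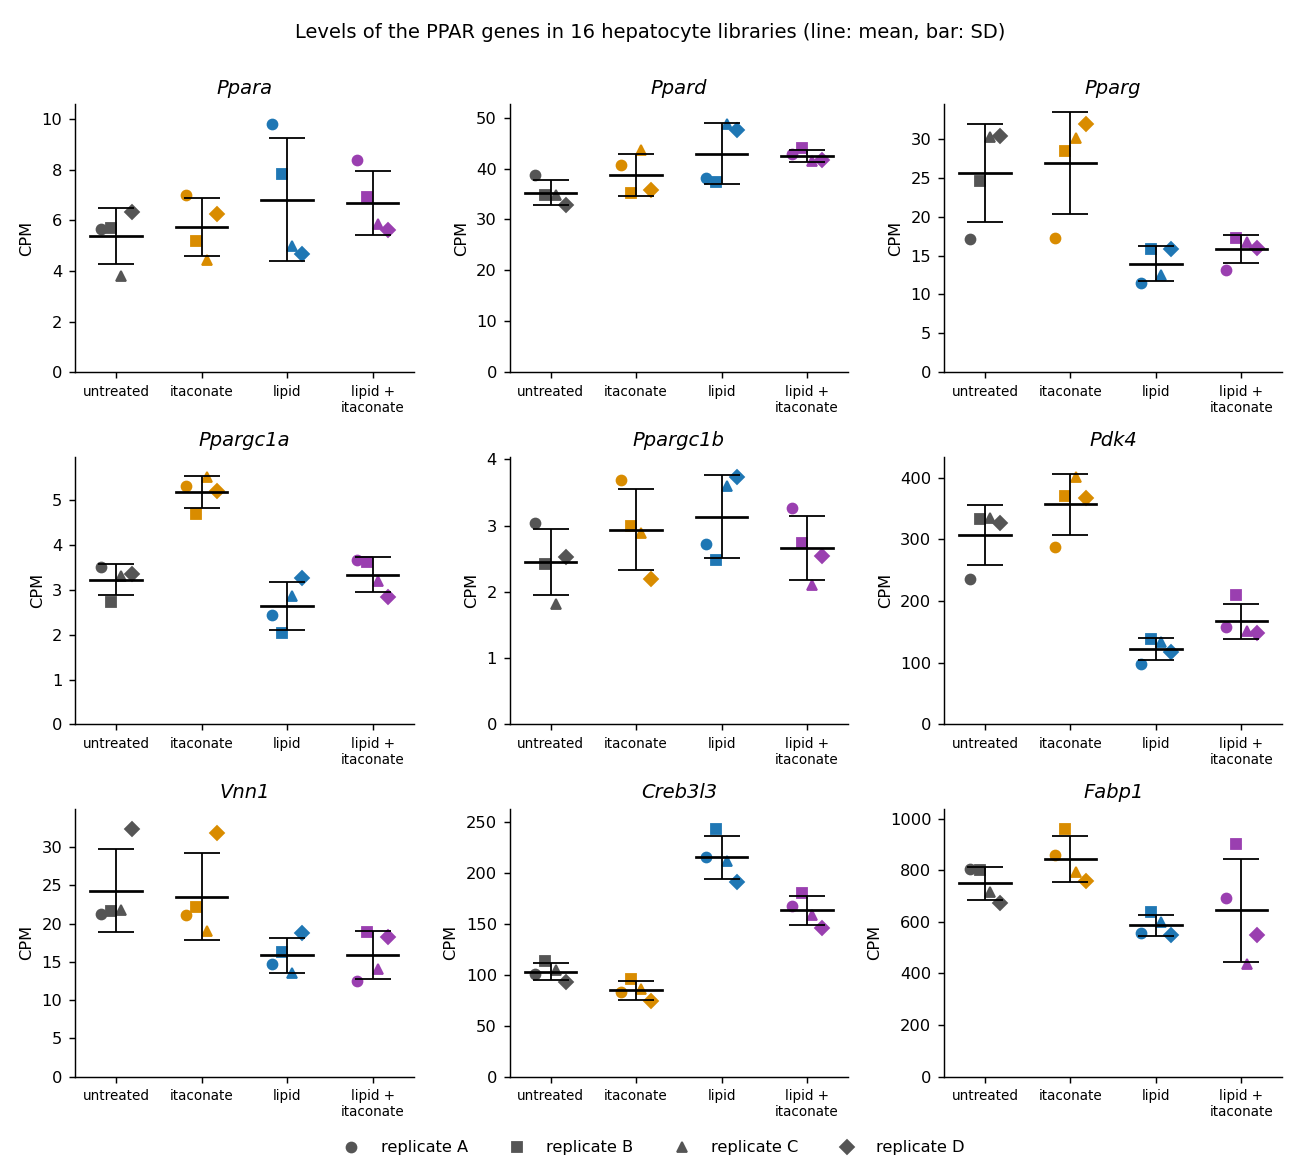
CPM of the 9 genes in every library (y axis, from 0) by treatment group (x axis); each point is a library, its shape the replicate letter, the line the group mean and the bar the SD of the 4 libraries. Every Pdk4, Pparg and Vnn1 point of the lipid group lies under every untreated point, and every Creb3l3 point lies above.

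The receptors did not move together. Pparg was at 17.1, 24.6, 30.3 and 30.4 CPM in untreated replicates A to D and at 11.5, 15.8, 12.5 and 15.9 CPM with lipid. All lipid libraries were below all untreated libraries, and replicate A was lowest in both groups. The log2 fold change was -0.86 ± 0.11 (SE), or 1.82-fold lower (adjusted p = 9.88e-06). With itaconate present, Pparg went from 17.3, 28.5, 30.1 and 31.9 CPM to 13.2, 17.3, 16.8 and 16.0 CPM, and the lowest itaconate library (A) and the highest lipid + itaconate library (B) nearly met (log2 fold change -0.74 ± 0.10, adjusted p = 3.83e-05). PPAR gamma is also a macrophage gene. Of the 9 macrophage markers tested, 5 were lower and 1 higher with lipid, where 23.7% of all genes were called lower and 23.8% higher. With lipid + itaconate against itaconate, 8 were lower and 1 higher, where 23.5% of all genes were called in each direction. In lipid + itaconate against lipid 1 marker was called, lower, and their median log2 fold change was -0.35, while that of Pparg was 0.19, not called. Adgre1, the F4/80 antigen, changed by -0.82 ± 0.21 and Marco, a scavenger receptor of Kupffer cells, by -0.76 ± 0.17 on the log2 scale with lipid against untreated. The summed macrophage markers, most of it the lysosomal gene Cd68, ran from 186 to 299 CPM in untreated and from 236 to 335 CPM in lipid libraries. Fewer macrophages and less of these RNAs per macrophage cannot be told apart in bulk RNA, and their part in the level of Pparg was not tested. Of 6 bile duct markers only Spp1 and Sox9 were tested, and with lipid they fell by 0.97 and 0.37 on the log2 scale. Over all genes, 23.7% were called lower. Krt19 and Epcam averaged at most 0.317 and 0.349 CPM in any group, Krt7 at most 0.00961 CPM, and the channel gene Cftr was at 0. The 6 summed to 599 to 1170 CPM in untreated and 335 to 608 CPM in lipid libraries, nearly all of it Spp1 and Sox9. That sum does not show how much RNA came from bile duct cells. The 10 hepatocyte markers summed to 39300 to 54100 CPM and 34600 to 45800 CPM in the same groups. With lipid 2 of them were called higher and 2 lower, beside 23.8% and 23.7% of all genes. The part of these cell types in the falls with lipid described here was not tested.

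Ppard was at 38.8, 34.7, 34.8 and 32.8 CPM in untreated replicates A to D and at 38.2, 37.3, 48.7 and 47.5 CPM with lipid. The groups overlapped, with replicates C and D far above their untreated partners and A and B close to theirs. The rise was small (log2 fold change 0.28 ± 0.084, adjusted p = 0.0114) and missed the threshold without lipid replicate D (adjusted p = 0.0625), untreated replicate C (0.0522) or untreated replicate D (0.0504). With itaconate present the change was 0.14 (95% interval -0.04 to 0.31, adjusted p = 0.19). Ppara ranged from 3.79 to 6.34 CPM in untreated and from 4.68 to 9.81 CPM in lipid libraries, and the groups overlapped. Its change missed the threshold in both lipid comparisons, with intervals that reach from -0.03 to 0.65 without itaconate and from -0.11 to 0.56 with it (adjusted p = 0.126 and 0.259). The first of these, 0.31, passed without lipid replicate D (log2 fold change 0.48, adjusted p = 0.016), without untreated replicate D (0.46, adjusted p = 0.0348) and with no filter on low genes (0.32, adjusted p = 0.0469), and it was 0.20 without lipid replicate A.

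Per kilobase of annotated exons, Ppara gave the smallest part of the receptor transcripts in 16 of 16 libraries, and Pparg the largest in untreated and itaconate-treated cells. The shares of the summed signal in untreated cells were 9.63% ± 2.41 for Ppara, 32.4% ± 6.46 for Ppard and 58.0% ± 8.15 for Pparg (SD, n = 4). With lipid they were 14.7% ± 5.83, 46.8% ± 5.97 and 38.5% ± 4.70 in the same order, and Ppard passed Pparg in 3 of the 4 libraries. The share of Pparg was 57.2% ± 8.36 with itaconate alone and 42.0% ± 3.94 with itaconate and lipid. The order of Ppard and Pparg depends on the length used: with the longest protein-coding transcript of each gene, the untreated shares were 44.6% ± 7.32 and 48.9% ± 8.20 and the lipid shares 60.4% ± 5.52 and 30.2% ± 4.16. Ppara was lowest in all 16 libraries with that length too.

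**Figure D2:**
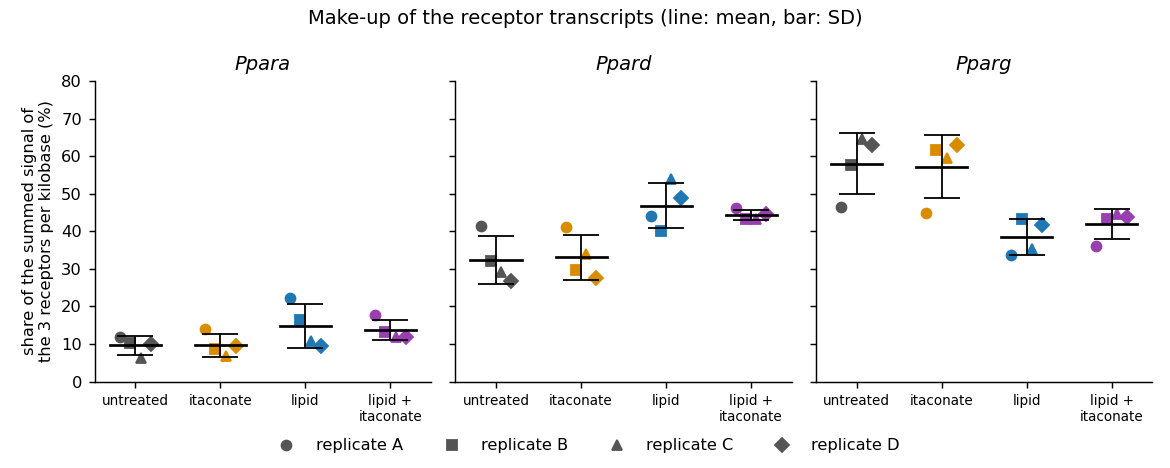
Share of each receptor in the summed CPM per kilobase of the 3 receptors (y axis, percent) in each library, by treatment (x axis); lines are group means and bars the SD of 4 libraries. The mean share of Pparg is 58.0% in untreated and 38.5% in lipid-treated cells, and the highest share of Ppara in any library is 22.2%.

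The retinoid X receptors, the general coregulators and the nuclear receptor genes Nr0b2 and Nr1h3 made a list of 22 genes. With lipid 2 of them rose and 6 fell, where 23.8% of all genes were called higher and 23.7% lower, and the median log2 fold change was -0.07 beside 0.0047 over all genes tested. With itaconate present, 1 rose and 11 fell (median -0.15), where 23.5% of all genes were called in each direction (median 0.0041). Rxra, the main liver partner of PPAR alpha, changed by 0.11 ± 0.045 (adjusted p = 0.0496) without itaconate. Lpin1, a lipid phosphatase that also coactivates PPAR alpha with PGC-1 alpha, fell by 0.91 on the log2 scale (SE 0.099, adjusted p = 3.01e-06), and Nrip1, a corepressor known as RIP140, fell by 0.55 (SE 0.074). Sirt1, the deacetylase that acts on PGC-1 alpha, fell by 0.30 (SE 0.058). Hdac3, the deacetylase of the nuclear receptor corepressor complex, rose by 0.33 ± 0.05 (adjusted p = 6.75e-05). Lpin1, Nrip1 and Sirt1 also fell and Hdac3 also rose with lipid in the presence of itaconate.

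Ppargc1a was the gene of the set that itaconate raised most. It stood at 3.51, 2.73, 3.32 and 3.35 CPM in untreated replicates A to D and at 5.32, 4.69, 5.53 and 5.21 CPM with itaconate. Each itaconate library was above every untreated one, and within letters the rise was 0.60 to 0.77 on the log2 scale. The fold change was 1.61 (log2 0.69 ± 0.14, adjusted p = 0.0121), in a comparison in which 4.91% of all genes and 2 of the 9 were called. Without the letter in the model the adjusted p was 0.0716, and without itaconate replicate C it was 0.0587. With lipid present the same difference was 0.34 (95% interval 0.02 to 0.65, adjusted p = 0.255), higher in 3 letters and lower in 1, from 2.43, 2.03, 2.87 and 3.27 CPM to 3.67, 3.62, 3.21 and 2.84 CPM. The effects of itaconate with and without lipid differed by -0.35 (interval -0.79 to 0.08, adjusted p of the interaction = 0.666), so a difference was not shown. Lipid lowered Ppargc1a in itaconate-treated cells (log2 fold change -0.63 ± 0.14, adjusted p = 0.00177), and without itaconate its change was -0.28 (interval -0.60 to 0.04, adjusted p = 0.138), which passed at -0.42 without lipid replicate D (adjusted p = 0.0441).

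Ppargc1b ran from 1.82 to 3.74 CPM over all 16 libraries, and its groups overlapped in all 4 comparisons. Its differences were between -0.26 and 0.38 on the log2 scale with standard errors of 0.19 to 0.20, and none passed (adjusted p = 0.128 to 0.582). The largest of them, 0.38 with lipid, was 0.54 without lipid replicate A, where it passed (adjusted p = 0.0344), and 0.23 without lipid replicate C. The factors that PGC-1 alpha works with gave 2 higher and 1 lower of 9 tested with lipid, where 47.5% of all genes were called. Foxo1, the insulin-controlled forkhead factor, rose by 0.36 ± 0.078, Esrra, the estrogen-related receptor of the mitochondrial program, rose by 0.27 ± 0.06, and Yy1, a zinc finger factor, fell by 0.29 (SE 0.048). Yy1 rose with itaconate (0.21 ± 0.047, adjusted p = 0.0207), as Ppargc1a did. Among 6 gluconeogenic genes, which include Ppargc1a itself, 2 rose and 2 fell with lipid, beside 23.8% and 23.7% of all genes. G6pc, the last enzyme of glucose release, rose by 0.62 ± 0.20 and Pck1, the enzyme that commits carbon to glucose, fell by 0.61 (SE 0.17). With itaconate against untreated, 1 of the 6 was called, and it was Ppargc1a.

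Pdk4 fell most of the 9 genes with lipid. It was at 235, 333, 334 and 327 CPM in untreated replicates A to D, with A apart, and at 98.3, 138, 133 and 117 CPM with lipid. Every lipid library was under every untreated one, and the fall within letters was between -1.49 and -1.26 on the log2 scale. The log2 fold change was -1.34 ± 0.087, or 2.53-fold lower (adjusted p = 1.58e-08, rank 45 of all genes by p). In itaconate-treated cells it was -1.09 ± 0.086 (adjusted p = 2.48e-07). Adding itaconate to lipid brought Pdk4 to 158, 210, 152 and 148 CPM, above every lipid library and with replicate B highest. That rise was 0.47 ± 0.086 on the log2 scale, or 1.38-fold (adjusted p = 0.0122), higher in 4 of 4 letters, and Pdk4 stayed well under the untreated level. In that comparison 2.58% of all genes and 2 of the 9 were called. The call was lost without the letter in the model (adjusted p = 0.276), with only the 8 libraries compared (0.125) and without lipid + itaconate replicate A (0.0571). Itaconate alone gave 0.22 (95% interval 0.04 to 0.40, adjusted p = 0.145), also higher in 4 of 4 letters, which passed with only the 8 libraries compared (0.000732) or with no filter (0.000868), and the interaction was 0.25 (interval -0.0050 to 0.51, adjusted p = 0.589).

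The relatives of Pdk4 did not follow it as a group. Per kilobase, Pdk4 averaged 67.8 CPM over the 16 libraries against 16.7 for Pdk1, 11.6 for Pdk2 and 0.841 for Pdk3. Pdk3 rose with lipid (0.68 ± 0.18, adjusted p = 0.00586) at 1.47 to 3.09 CPM in the group means, and Pdk1 fell by 0.27 (SE 0.065, adjusted p = 0.00295). Pdk2 was 0.22 ± 0.11 (adjusted p = 0.115). Pdp2 and Pdp1, the phosphatases that turn pyruvate dehydrogenase back on, fell by 0.49 (SE 0.069) and 0.28 (SE 0.078). Of the 7 kinases and phosphatases, 1 rose and 4 fell with lipid, Pdk4 included, beside 23.8% and 23.7% of all genes.

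Creb3l3 was the gene with the smallest p-value of all 11675 in both lipid comparisons and in lipid + itaconate against lipid. It went from 101, 113, 105 and 93.2 CPM in untreated replicates A to D to 215, 243, 211 and 191 CPM with lipid, without overlap and with B highest and D lowest in both groups. The ratios within letters were close to one another, from 1.00 to 1.10 on the log2 scale. The fold change was 2.08 (log2 1.06 ± 0.036, adjusted p = 3.1e-11). In itaconate-treated cells lipid raised it 1.93-fold, from 82.6, 95.4, 86.3 and 73.7 CPM to 167, 180, 159 and 146 CPM (adjusted p = 2.74e-10). Itaconate lowered Creb3l3 both times. Without lipid it was 1.22-fold lower (log2 fold change -0.29 ± 0.037, adjusted p = 0.000343, rank 25 by p), and the ranges of the groups overlapped because the letters differ, although itaconate was lower in 4 of 4 letters. With lipid it was 1.32-fold lower (log2 fold change -0.40 ± 0.036, adjusted p = 6.77e-05), with every lipid + itaconate library under every lipid library. Both calls rest on the pairing by letter, since the adjusted p was 0.178 and 0.12 without the letter in the model. The interaction was -0.11 (interval -0.22 to -0.0009), and its unadjusted p of 0.0483 came to 0.576 after adjustment.

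**Figure D3:**
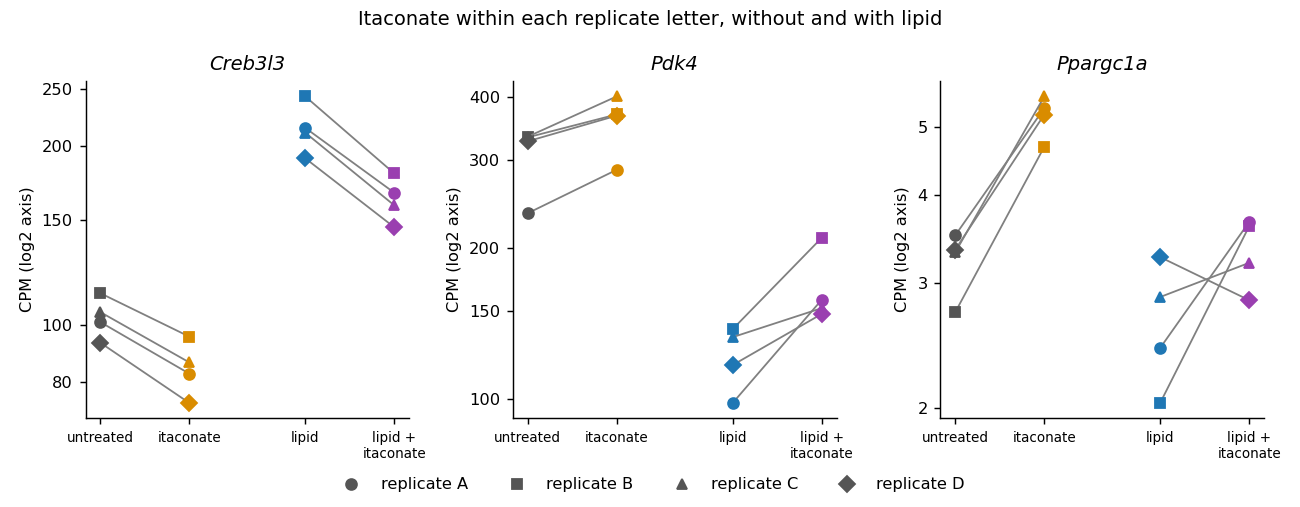
CPM (y axis, log2 scale) of Creb3l3, Pdk4 and Ppargc1a in each library, with lines that join libraries of the same replicate letter without and with itaconate, for cells without lipid (left pair) and with lipid (right pair). The Creb3l3 lines fall side by side, by 0.25 to 0.34 without and 0.37 to 0.44 with lipid on the log2 scale, while the Ppargc1a lines rise in every letter without lipid and cross with it.

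The relatives of Creb3l3 were not called with lipid. The log2 fold change against untreated cells was -0.10 ± 0.074 for Creb3 (adjusted p = 0.263) and -0.03 ± 0.071 for Creb3l2 (0.795), and Creb3l1 and Creb3l4 were under 1 CPM. Per kilobase, Creb3l3 averaged 46.8 CPM, Creb3 13.2 and Creb3l2 7.87. Of 10 listed genes known to be controlled by CREBH, 8 were tested. With lipid 4 of them were higher and 3 lower (median log2 fold change 0.05), where 23.8% of all genes were called higher and 23.7% lower. Kiss1 had no counts. Fgf21 averaged 0.961 CPM, under the filter, and in edgeR's fit with no filter it rose by 1.13 ± 0.3 with lipid (adjusted p = 0.00137). Apoa5 and Apoa4, apolipoproteins of triglyceride-rich particles, rose by 0.75 ± 0.07 and 0.33 ± 0.051, and the lipid droplet gene Cidec rose by 0.34 ± 0.13. Apcs and Crp, acute phase proteins that CREBH is known to induce, fell by 0.87 (SE 0.067) and 0.67 (SE 0.099). Apoa5, Apoa4, Cidec, Apcs and Crp were also called, in the same directions, with lipid in itaconate-treated cells. Apcs also rose in lipid + itaconate against lipid (0.31 ± 0.067, adjusted p = 0.0269), where Creb3l3 fell.

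Vnn1 was at 21.3, 21.7, 21.8 and 32.4 CPM in untreated replicates A to D, with D apart, and at 14.7, 16.3, 13.6 and 18.8 CPM with lipid. The groups did not overlap, and lipid was 1.52-fold lower (log2 fold change -0.61 ± 0.093, adjusted p = 7.98e-05). It was -0.55 ± 0.092 in itaconate-treated cells (adjusted p = 0.000194), in 4 of 4 letters both times. Itaconate gave no call for Vnn1, with changes of -0.05 (interval -0.24 to 0.14) without lipid and 0.01 (interval -0.19 to 0.21) with it. Vnn3, the other pantetheinase gene measured, fell alongside by 0.54 (SE 0.089) and 0.58 (SE 0.088) in the 2 lipid comparisons.

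Fabp1 was the most abundant of the 9 genes, with 1280 CPM per kilobase over the 16 libraries against 67.8 for Pdk4 and 46.8 for Creb3l3. It went from 804, 803, 717 and 673 CPM in untreated replicates A to D to 558, 639, 601 and 549 CPM with lipid, without overlap. The 1.27-fold fall (log2 fold change -0.35 ± 0.11, adjusted p = 0.0143) was lost without the letter in the model (adjusted p = 0.0858), and narrowly without lipid replicate A, lipid replicate B or untreated replicate C (0.0564, 0.055 and 0.0561). With lipid + itaconate it was at 691, 901, 438 and 549 CPM, the widest spread of the 4 groups for this gene (SD 200 CPM), and B overlapped the itaconate libraries at 758 to 961 CPM. That fall was -0.42 ± 0.11 (adjusted p = 0.00517, and 0.0616 without the letter), and it was -0.27 without lipid + itaconate replicate C, still past the threshold. Against lipid alone, lipid + itaconate gave 0.10 (interval -0.13 to 0.33, adjusted p = 0.668), which passed at 0.25 without the same library (adjusted p = 0.0483) and was -0.04 without lipid + itaconate replicate B. Itaconate alone gave 0.17 (interval -0.06 to 0.40, adjusted p = 0.383), higher in 4 of 4 letters, and this passed with only the 8 libraries compared (adjusted p = 0.00496) or with no filter on low genes (0.0203). Within the family, Fabp5 and Fabp2, the epidermal and intestinal forms, fell by 0.46 (SE 0.10) and 0.28 (SE 0.093) with lipid. Fabp4, the form of fat cells and macrophages, was at about 2 CPM and differed by 0.05 ± 0.24 on the log2 scale (adjusted p = 0.871), and Fabp3, Fabp6, Fabp7 and Fabp12 averaged under 1 CPM.

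**Figure D4:**
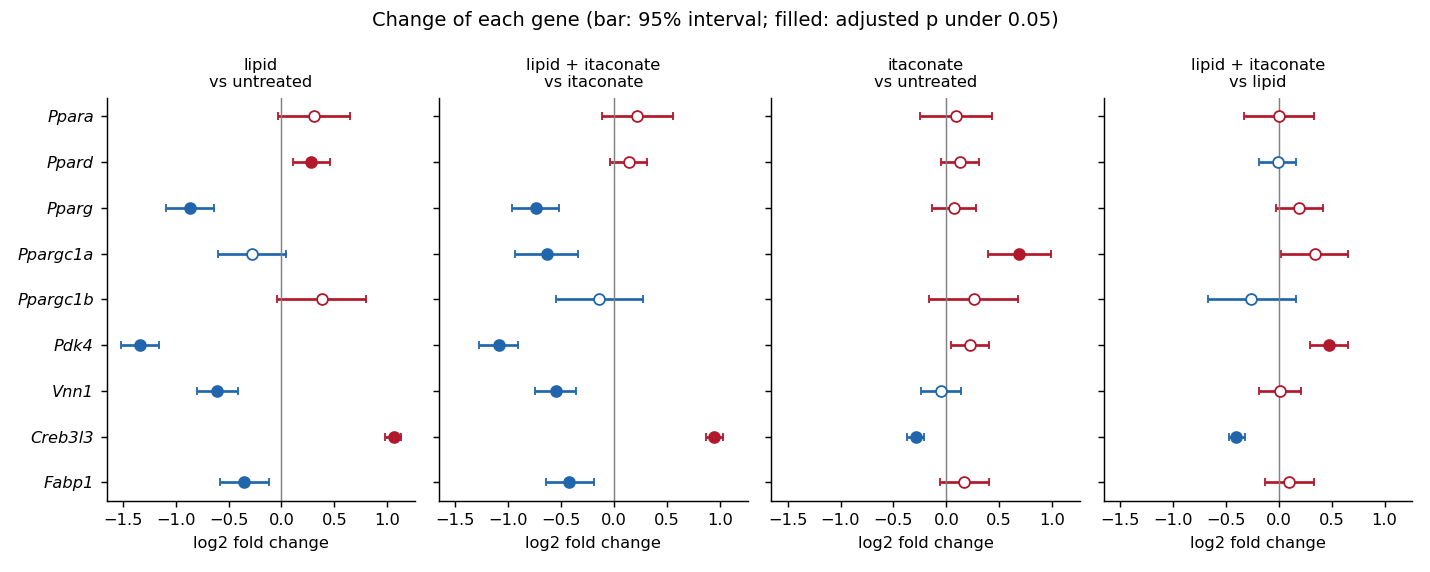
Log2 fold change (x axis) of each gene (y axis) in the 4 comparisons, with 95% intervals as bars; red is higher, blue is lower, and filled points have an adjusted p under 0.05. The 2 lipid comparisons on the left hold 6 filled points each and the 2 itaconate comparisons on the right hold 2 each.

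Further genes known as PPAR alpha targets fell more often than they rose with lipid. Of 52 tested, 33 fell and 4 rose, while over all genes 23.7% were called lower and 23.8% higher, and the median log2 fold change was -0.28 beside 0.0047 for all genes. Fgf21 is on this list too and, being under the filter, is not among the 52. The list was chosen with earlier results of these data known, which may have shaped these counts. In itaconate-treated cells 33 fell and 3 rose (median -0.26), where 23.5% of all genes were called in each direction (median 0.0041). Of the 52, 32 fell in both of these comparisons. The share of all genes that fell in both was not counted, so the overlap is not shown to be particular to these targets. Abcd2, a peroxisomal transporter of very long chain fatty acids, fell by 1.37 on the log2 scale (SE 0.29), Angptl4, an inhibitor of lipoprotein lipase, fell by 1.02 (SE 0.072), and Plin2, a coat protein of lipid droplets, fell by 0.85 (SE 0.083). In itaconate-treated cells the falls were 1.07 (SE 0.27) for Abcd2, 0.85 (SE 0.071) for Angptl4 and 0.71 (SE 0.064) for Acsl1, the acyl-CoA synthetase that activates long chain fatty acids. G0s2, an inhibitor of lipolysis, rose by 0.61 ± 0.17, Gpd1, which makes glycerol 3-phosphate, by 0.58 ± 0.051, and Cidec by 0.34 ± 0.13, and each of them also rose in itaconate-treated cells. Pdk4, Vnn1 and Fabp1 thus had the direction of most of this list, and Creb3l3 that of the few.

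**Figure D5:**
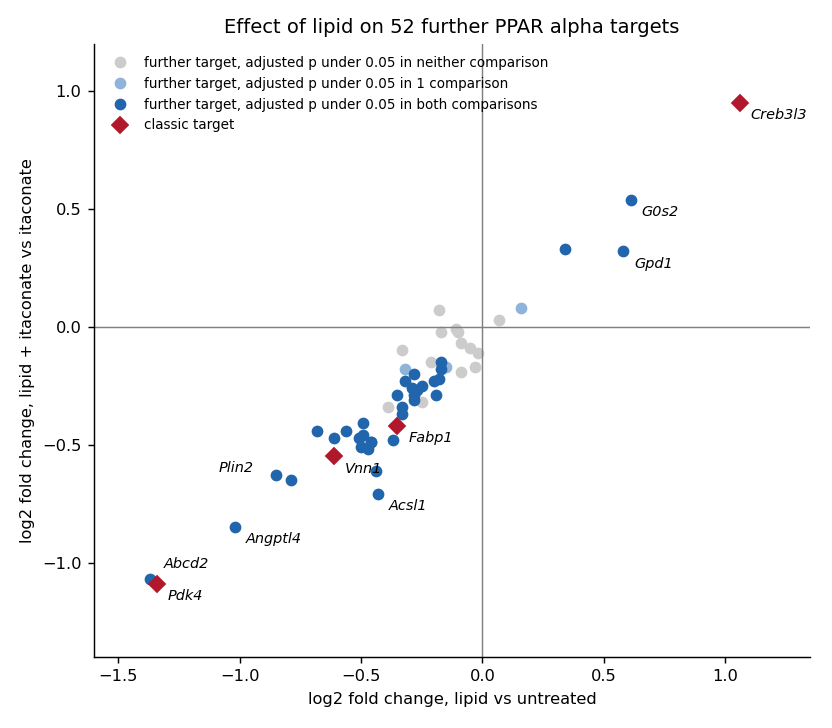
Log2 fold change with lipid in cells without itaconate (x axis) and with it (y axis) for 52 further PPAR alpha targets (circles, darker where the adjusted p was under 0.05 in more comparisons) and the 4 classic targets (diamonds). Most circles lie in the lower left part with Pdk4, Vnn1 and Fabp1, and Creb3l3 lies farthest to the upper right, where G0s2, Gpd1 and Cidec also lie.

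Of these targets, 1 of the 52 rose and 2 fell with itaconate against untreated, near the share over all genes (1.96% higher and 2.95% lower): Eci2, an isomerase of unsaturated fatty acid oxidation, by 0.23 ± 0.058, Slc27a1, a fatty acid transporter, by -0.51 ± 0.13, and Fads2, a desaturase, by -0.21 ± 0.05. In lipid + itaconate against lipid, Pex11a, which divides peroxisomes, rose by 0.29 ± 0.066 (adjusted p = 0.0342), and it was the only one of the 52 called, where 2.58% of all genes were. The genes of PPAR gamma and fat cells were mostly near 0, and 5 of 13 passed the filter. Of these, 4 fell with lipid: among them Plin4, a droplet protein, by 0.97 (SE 0.16), Lpl, lipoprotein lipase, by 0.88 (SE 0.11), and Pck1 as above. All 4 also fell in itaconate-treated cells. Over all genes, 23.7% were called lower in the first comparison and 23.5% in the second.

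A different response to itaconate in cells with and without lipid was not shown for any of the 9 genes. By edgeR's test of the interaction 0 of 9 were called and 1 had an unadjusted p under 0.05, DESeq2 and limma-trend called 0, and 0.00857% of all genes were called. The largest estimate was that of Ppargc1b, -0.52 (95% interval -1.10 to 0.07), and the narrowest interval that of Creb3l3.

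The genes whose pattern over the 16 libraries was most like that of each called member were taken by Pearson's r of log2 CPM, with the letter means removed, among 9361 genes of at least 5 CPM. These libraries share treatments, letters and scaling, and most of the spread is the step with lipid, so r describes likeness only. For Creb3l3 they were Zfand2a (0.994), Cavin1 (0.987) and Hmgn2 (0.987), and for Pdk4 Txnrd1 (0.993) and Edem1 (0.988). For Pparg they were Kyat3 (0.983), Ywhah (0.981) and Nudt21 (0.981). Vnn1 went with Hpn (0.975), Cd47 (0.969) and Ehhadh (0.968), and Fabp1 with Gcdh (0.99) and Upb1 (0.989). Ehhadh, which encodes a peroxisomal oxidation enzyme, is on the list of further PPAR alpha targets. Ppargc1a was closest to Mier1 (0.97), Fam210a (0.97) and Dyrk1a (0.968), and Ppard to Lamc1 (0.93), Fyttd1 (0.921) and Fem1b (0.919).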

How the data were processed

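Bulk RNA-seq of 16 libraries was analysed, 4 each of untreated, itaconate, lipid and lipid + itaconate hepatocytes. Per the labels, total RNA was made into libraries with a stranded mRNA kit. The submitters' processing notes name bcl2fastq 2.20, cutadapt 1.18, STAR 2.7.0f, Picard 2.18.26, RSEM 1.3.1 and mm10. The deposited values are the authors' estimated counts per gene from RSEM, without normalization, and 5.41% of them were not whole. RSEM shares reads that fit several genes among them. The study's later filter, removal of a batch that it does not name, and tests were not used.

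Counts were rounded and analysed with edgeR 4.0.16 in R 4.3.3. The filter on low genes (mean over all libraries of 1 CPM or more) left 11675 of 55450. The model held treatment and replicate letter over all 16 libraries, with TMM scaling, the quasi-likelihood test (two-sided), Benjamini-Hochberg adjustment over all genes tested and a threshold of 0.05. Intervals are 95% from the same fit. CPM uses TMM library sizes, log2 CPM a prior count of 0.5, and lengths are the union of GENCODE exons (GRCm38), in which all 55450 identifiers were found. The steps were also run on simulated counts in which far fewer genes changed than were called with lipid here. That run therefore does not test them where so many genes change.

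Letters come from the labels. Deviations from group means correlated in all 24 pairs of libraries with the same letter (0.144 to 0.469), while pairs with other letters had a median of -0.114, so the letter was kept as a block. The alternatives were no block, RLE scaling, no filter, the filterByExpr filter, the 8 libraries compared only, DESeq2 1.42.0, limma-trend (limma 3.58.1) and each library left out. The second length for the receptors was chosen after the data were seen.

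The 9 genes and all lists were chosen with earlier results of these data known, from general knowledge and not from a database. From each list, at most 3 genes that rose and 3 that fell most were named per comparison, and members of the Fabp, Pdk, vanin and CREB3 families with their levels. One listed name, Peci, is not in the table. Some genes that these rules would name are not reported here.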

Additional observations from a re-analysis of the deposited data

Results flagged for a closer look

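Each of the 36 sets of 4 libraries (9 genes in 4 groups) was searched for a library whose gap to its nearest neighbour, over the whole range, exceeded Dixon's 95% critical value for 4 samples. Chance flags about 1 in 20 groups, and 3 were found.

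In untreated cells, Pdk4 in replicate A was lowest, at 235 CPM against 327 to 334 CPM in the others (gap over range 0.930). Replicate A was also lowest for Pdk4 with itaconate (287 CPM) and with lipid (98.3 CPM). In lipid + itaconate cells, Pdk4 in replicate B was highest, at 210 CPM against 148 to 158 CPM (0.838). In untreated cells, Vnn1 in replicate D was highest, at 32.4 CPM against 21.3 to 21.8 CPM (0.953), and replicate D was also highest with itaconate (31.9 CPM) and with lipid (18.8 CPM).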

How the results depend on the processing

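The calls of Pparg, Pdk4, Vnn1 and Creb3l3 in both lipid comparisons, and of Ppargc1a in lipid + itaconate against itaconate, held under all 23 alternatives. Counts of the other comparisons moved. Without the replicate block, which ignores the pairing by letter, itaconate against untreated gave 23 genes and 0 of the 9, lipid + itaconate against lipid gave 9 genes and 0 of the 9, and the interaction gave 0 genes. With no filter these gave 1091 genes and 4 of the 9, 725 genes, and 231 genes. With only the 8 libraries compared, itaconate gave 1865 genes and 4 of the 9, and lipid + itaconate against lipid 13 genes and 1 of the 9. DESeq2 gave 509 genes for lipid + itaconate against lipid and 36 for the interaction, for which RLE scaling and filterByExpr each gave 2. With 1 library left out, itaconate gave 149 (without itaconate replicate C) to 1047 genes (without lipid + itaconate replicate C) and 1 to 2 of the 9. Lipid + itaconate against lipid gave 59 (without lipid + itaconate replicate A) to 889 genes (without lipid + itaconate replicate C) and 1 to 3 of the 9, and the interaction 0 to 8 genes. Lipid against untreated gave 4 (without untreated replicate C) to 7 of the 9.

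Signs turned only for differences that were not called. Leaving out 1 library, the itaconate difference of Ppara ranged from -0.02 to 0.25, and in lipid + itaconate against lipid Ppara from -0.16 to 0.12, Ppard from -0.09 to 0.07, Vnn1 from -0.11 to 0.07 and Fabp1 from -0.04 to 0.25. The interaction ranged from -0.25 to 0.03 for Ppara, -0.06 to 0.12 for Vnn1 and -0.21 to 0.08 for Fabp1. In lipid + itaconate against lipid, Ppara was -0.0006 with RLE scaling, -0.0007 with filterByExpr and -0.02 without the block, and Vnn1 -0.0005 with limma and -0.0008 with 8 libraries. The causes were not tested. Counts of 50 to 296 per library limit what could be seen for Ppara, Ppargc1a and Ppargc1b.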
